A study of Mus musculus with 18 samples.

Results

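The response of Pik3cd-/- ovaries to oestradiol (E2) was read from 6 of the 18 arrays of the study: 3 of Pik3cd-/- ovaries taken after E2 and 3 of untreated Pik3cd-/- ovaries, chosen by their titles. The gene Pik3cd codes for the p110 delta catalytic protein of phosphoinositide 3-kinase. All animals were females on a mixed C57B6J/S129 background. The untreated mice were 21 days old. The E2 mice were injected intraperitoneally from day 21 on, 3 times at 24 hour intervals with 0.03 ml E2 of unstated concentration, and their ovaries were taken 72 hours after the first injection, so they were also older than the untreated mice by those 72 hours. No vehicle-injected group was among the 6 groups, so the difference includes injection and age as well as E2. The Pik3cd+/- mice set beside them (3 untreated arrays and 3 after E2, none shared with the Pik3cd-/- comparison) carried 1 working allele and had the same schedule. A further Pik3cd-/- group, taken 44 hours after 10 IU of PMSG, shares the untreated arrays and is used only for values side by side. The labels call the replicates biological but do not say which animals, or how many, were behind each array.

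Oestradiol acts in the ovary through the receptor ESR2, abundant in granulosa cells, and ESR1, found in theca, stroma and surface epithelium. In immature rodents it supports the growth of follicles and restrains androgen production by theca cells. The delta isoform of phosphoinositide 3-kinase is best known from leukocytes, where it relays signals from cytokine and antigen receptors.

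The arrays carried the markers of an ovary: across the 6 arrays the oocyte growth factor Gdf9 lay between 4146 and 8190 intensity units and the granulosa cell transcription factor Foxl2 between 2577 and 3777, against a median signal of 49.9 over all values. Of 3 probe sets for Pik3cd, 1 gave 19.1, 27.6 and 20.5 in the E2 arrays of Pik3cd-/- ovaries, below the 66.9 to 73.1 of Pik3cd+/- ovaries after E2. Another was bright and not lower (2948.5, 3878.6 and 3318.6 against 2329.3, 2812.2 and 3075), and the other, a dim one, gave 41.8, 41.8 and 35.8 against 54.5, 43.7 and 54.5. Markers of fat were also bright in 5 of the 6 arrays. The untreated Pik3cd-/- array 2 stood apart in granulosa genes: Inhba, the inhibin beta A chain, read 273 there and 2928 and 2066 in its group mates. Among the E2 arrays, array 2 was low in fat, stroma, vessel and macrophage genes and array 3 was low in oocyte genes, as described further on.

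After E2, 7 of 12713 tested genes passed the threshold in Pik3cd-/- ovaries (limma, adjusted p under 0.05), which is 0.0551% of the genes tested; 1 rose (0.00787%) and 6 fell (0.0472%). At an unadjusted p under 0.05 there were 1862 genes (14.6%). The gene that rose was Chil3, a chitinase-like lectin secreted by alternatively activated macrophages and by neutrophils. The genes that fell were Susd4, 6820431F20Rik, Adamts9, Hsp90aa1, Osr2 and Prss35, and of all 7 only Chil3 and Prss35 changed at least 2-fold. In the same fit, 206 genes (1.62%) passed in Pik3cd+/- ovaries, 150 higher (1.18%) and 56 lower (0.440%). A difference between the counts is not a test of a difference between the genotypes, which is given further on.

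Chil3 read 11.8, 12.4 and 11.3 in the untreated arrays and 108, 119 and 50.8 after E2. Every E2 array was several times brighter than every untreated array. The log2 change was 2.23 ± 0.28 (SE from the spread within all 6 groups of the fit, n = 3 arrays per group, adjusted p = 0.00897). The untreated signals lay close to the pseudocount of 8.58 added before taking logs, so this change understates the ratio of the signals. In Pik3cd+/- ovaries Chil3 went from 12, 9.47 and 10.1 to 30, 50.6 and 86.2 (1.66 ± 0.28, adjusted p = 0.00990), and the changes of the 2 genotypes differed by 0.58 (95% interval -0.27 to 1.42, adjusted p = 0.742). After PMSG in Pik3cd-/- ovaries it read 18.8, 19.1 and 23.2. The probe set may also read Chil4, a close paralogue.

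Chil3 stood apart from the other macrophage genes on the arrays. It was highest in E2 array 2, where 20 of the 26 macrophage markers tested were below all 3 untreated arrays (36.5% of all genes were). It was lowest in E2 array 3, where 19 of the 26 were above all of them (21.9% of all genes were). With the mean level of the adipocyte genes as a covariate Chil3 still rose by 2.08 ± 0.27 (adjusted p = 0.00530). It also passed in each of the 6 fits that left out 1 array of the comparison, with adjusted p-values up to 0.0449. All these fits kept the same set of tested genes, so they are no independent support. Among the Pik3cd-/- groups, Chil3 entered that set through its E2 arrays alone, since its untreated and PMSG signals lay under the median of 49.9. It was not tested with the filter at the 70th percentile. It did not pass in a fit of the 6 arrays alone (adjusted p = 0.718), where no gene did.

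**Figure D1:**
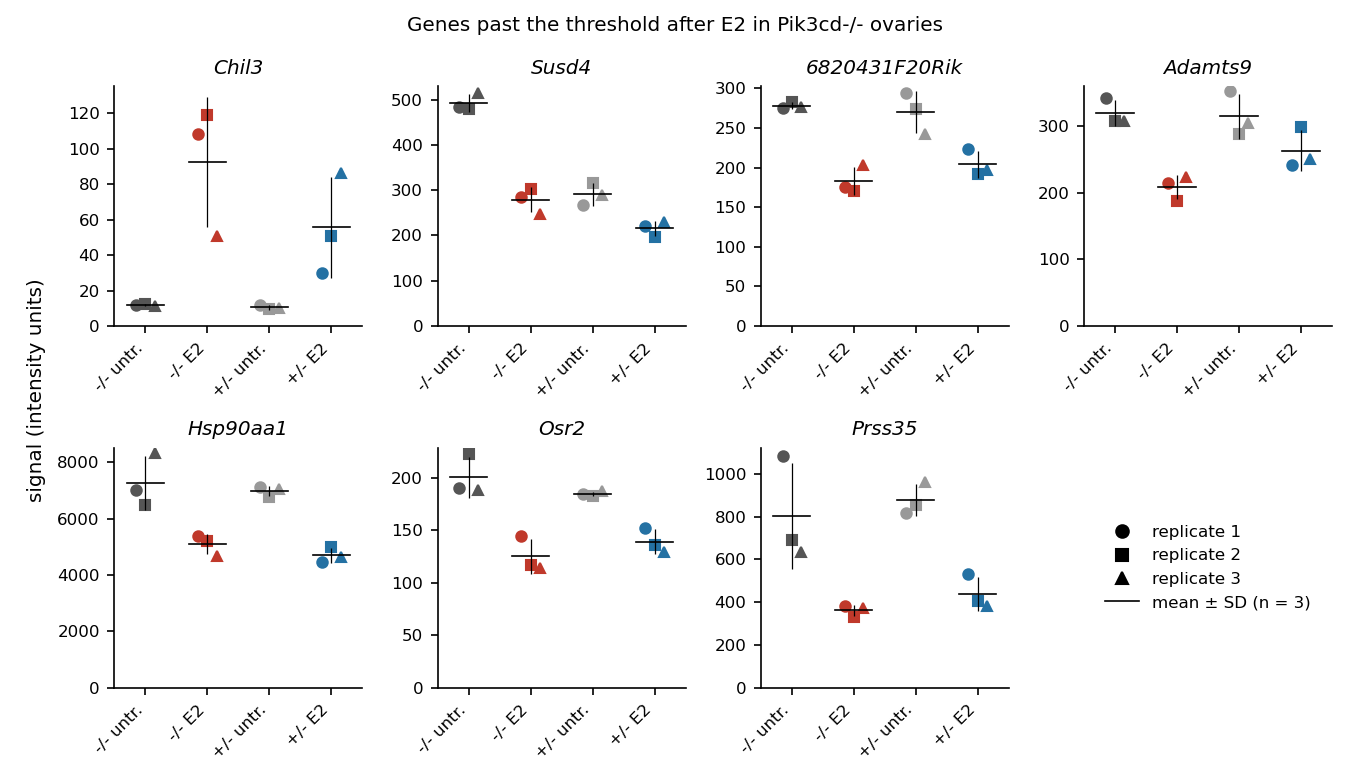
Signal on a linear scale (intensity units, y axis) of the 7 genes past the threshold after E2 in Pik3cd-/- ovaries, in untreated (untr.) and E2 arrays of both genotypes (x axis). Each point is 1 array with its shape giving the replicate number, and lines are the mean ± SD (n = 3). In Pik3cd-/- ovaries the 3 E2 arrays lie wholly above (Chil3, 50.8 to 119 against 11.3 to 12.4) or wholly below the untreated arrays.

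Of the genes that fell, Prss35, a secreted member of the serine protease family found in ovarian follicles and stroma, changed most. It read 1085, 688 and 635 untreated and 382, 332 and 371 after E2, and fell by 1.09 ± 0.18 on the log2 scale (adjusted p = 0.0368). It also fell in Pik3cd+/- ovaries, by 0.997 ± 0.182 (adjusted p = 0.0141). After PMSG in Pik3cd-/- ovaries Prss35 read 1011, 1047 and 1112, above every E2 array. Adamts9, a secreted metalloprotease that cleaves the proteoglycan versican, read 342, 308 and 308 untreated and 214, 188 and 224 after E2 (-0.60 ± 0.10, adjusted p = 0.0345). It was the only gene past the threshold among 14 tested matrix proteases and inhibitors (0.0551% of all genes passed). Their median change was -0.12 (-0.03 without E2 array 2) against -0.05 over all genes tested.

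Susd4, a membrane protein that restrains complement, read 483, 480 and 514 untreated and 286, 303 and 248 after E2 (-0.80 ± 0.12, adjusted p = 0.0345). Pik3cd+/- ovaries read lower, at 267, 316 and 289 untreated and 221, 197 and 230 after E2 (-0.41 ± 0.12, adjusted p = 0.0903). The E2 arrays of Pik3cd-/- ovaries thus overlapped the untreated Pik3cd+/- arrays. A further probe set for Susd4 gave -0.61 ± 0.13 and missed the threshold (adjusted p = 0.0894).

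Osr2, a zinc finger transcription factor of the urogenital mesenchyme, read 190, 223 and 188 untreated and 144, 117 and 114 after E2 (-0.65 ± 0.11, adjusted p = 0.0368). The unnamed transcript 6820431F20Rik read 275, 283 and 276 untreated and 175, 171 and 203 after E2 (-0.59 ± 0.09, adjusted p = 0.0345). The groups did not overlap for either gene.

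Hsp90aa1, the inducible cytosolic HSP90 chaperone, which also holds steroid receptors in a hormone-binding state, read 7019, 6473 and 8328 untreated and 5364, 5213 and 4684 after E2. It fell by 0.51 ± 0.08 (adjusted p = 0.0345), and by 0.57 ± 0.08 in Pik3cd+/- ovaries (adjusted p = 0.00486). The probe sets disagreed: 2 others for the gene gave 0.01 (adjusted p = 0.948 and 0.961). Among 19 tested chaperone genes of the cytosol and mitochondria, a group put together after the values were seen, 13 were lower on average (61.7% of all genes were), with a median of -0.11, or -0.01 without untreated array 3. Hspa4l, an HSP110-type chaperone, came next to the threshold with 263, 291 and 353 untreated and 215, 179 and 157 after E2 (-0.69 ± 0.13, adjusted p = 0.0886).

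Of the 7 genes, 4 (Chil3, 6820431F20Rik, Hsp90aa1 and Prss35) also passed in Pik3cd+/- ovaries and the other 3 had the same sign there. Leaving out single arrays ended most of the calls: of the 6 such fits, Susd4, Hsp90aa1, Osr2 and 6820431F20Rik each passed in 2, and Adamts9 and Prss35 in 1. Each of the 6 falls kept its direction in every such fit.

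Just outside the threshold, 10 genes had an adjusted p from 0.05 to 0.1, and all 10 were lower after E2. The first were Col4a4, Kctd12b, Fmo2 and Il13ra2, each at an adjusted p of 0.0556. Il13ra2, the decoy receptor for interleukin 13, read 201, 209 and 188 untreated and 130, 122 and 105 after E2 (-0.71 ± 0.13), with -1.11 in Pik3cd+/- ovaries (adjusted p = 0.00193). Fmo2, a flavin-containing monooxygenase, read 364, 535 and 256 untreated and 178, 63.2 and 105 after E2 (-1.71 ± 0.31). Hoxd10, a positional transcription factor, went from 406, 477 and 323 to 251, 187 and 260 (-0.77 ± 0.15, adjusted p = 0.0932). In none of these did the groups overlap.

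Col4a4, a chain of the basement membrane collagen type IV, read 943, 924 and 817 untreated and 545, 537 and 606 after E2 (-0.66 ± 0.12). Col4a3 lies head to head with it in the genome and its chain joins the same collagen trimer. Col4a3 read 200, 199 and 193 untreated and 161, 144 and 133 after E2 (-0.41 ± 0.12, adjusted p = 0.232). Of the 6 type IV collagen genes, grouped after their values were seen, all 6 were lower on average (against 61.7% of all genes) and 3 did not overlap (against 8.54%). None of the 6 passed. Their median was -0.32, or -0.19 without E2 array 2 and -0.15 without both arrays numbered 2.

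The promoters of Chil3, the gene that rose, and of Col4a4 were set out because ESR1 and ESR2 bind DNA at the oestrogen response element. This element is an inverted repeat with 3 bases between its arms, of which a single arm reads GGTCA. The windows, from RefSeq on GRCm38.p6, hold the 250 bases before the start of transcription. Capitals mark GGTCA on either strand, which includes the arms of any full repeat.
Chil3, chr3:106167565-106167814, minus strand: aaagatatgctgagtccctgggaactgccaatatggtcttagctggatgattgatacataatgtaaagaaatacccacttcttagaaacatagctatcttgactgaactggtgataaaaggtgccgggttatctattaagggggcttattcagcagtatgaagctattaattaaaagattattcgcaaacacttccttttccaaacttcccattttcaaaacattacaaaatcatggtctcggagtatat
Col4a4, chr1:82586850-82587099, minus strand: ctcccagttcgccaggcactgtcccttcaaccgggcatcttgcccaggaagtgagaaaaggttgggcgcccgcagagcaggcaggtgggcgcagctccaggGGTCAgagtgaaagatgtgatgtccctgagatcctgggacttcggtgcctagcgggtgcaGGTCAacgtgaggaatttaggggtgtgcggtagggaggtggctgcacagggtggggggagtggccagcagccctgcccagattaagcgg
Col4a4 holds the arm 2 times and Chil3 does not. Windows were found for 4 of the 7 genes past the threshold (5 windows) and 9 of the 10 next to it (10 windows). None of these 15 windows held the full repeat, which is in 0.0639% of all 32851 windows. The arm was in 0 of the 5 and 4 of the 10 windows, beside 35.2% of all. A match is a description of letters, not of binding.

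The spread of the 3 E2 arrays was wide. A range of more than 2-fold among replicates was found for 681 genes (5.36% of those tested) in the E2 group of Pik3cd-/- ovaries, against 289 (2.27%) in their untreated group and 138 (1.09%) in Pik3cd+/- ovaries after E2. The median SD per gene was similar in the 2 Pik3cd-/- groups, at 0.140 and 0.148 on the log2 scale, so the excess sat in a subset of genes. Among the 681, the array farthest from the middle one was E2 array 2 on the low side in 308 genes, and E2 array 3 on the low side in 201 and on the high side in 96. Across genes, arrays 2 and 3 correlated at 0.961 and the other pairs at 0.978.

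Fat genes spread most. Car3, the carbonic anhydrase that is abundant in adipocytes, read 10146, 12465 and 8303 untreated and 6773, 16.9 and 13067 after E2. The adipokine Adipoq read 1787, 3028 and 1438 untreated and 1355, 11.5 and 3682 after E2. The fatty acid carrier Fabp4 read 3727, 4732 and 3258 untreated and 2108, 45.4 and 6464 after E2. E2 array 2 was thus nearly without fat signal and array 3 above all untreated arrays in each of these 3 genes.

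The same order held over the list. Of 19 adipocyte markers tested, 18 were lowest in E2 array 2 (94.7%, against 36.0% of all genes) and 18 highest in E2 array 3 (against 31.8%). The mean log2 level of the list was 8.68, 6.55 and 9.73 in the E2 arrays and 8.83, 9.31 and 8.71 in the untreated arrays, and 7 members were under the median signal in E2 array 2. The resistin gene Retn read 72.0 there (809 and 1587 in its mates), the lipid droplet gene Cidec 12 (167 and 421) and the lipogenic gene Thrsp 49.6 (828 and 747). Pparg, which other ovarian cells also express, did not follow, at 304, 325 and 451. The median SD of the list over the E2 arrays was 1.41, against 0.344 untreated and 0.357 in Pik3cd+/- ovaries after E2. Cyp2e1, outside the list, read 2021, 33.2 and 2130.

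No adipocyte gene passed the threshold. None had groups that did not overlap, while 4.72% of all genes were higher and 8.54% lower without overlap. The list's median change was -0.20, with 15 of 19 lower on average (78.9%, against 61.7% of all genes). It was 0.17 without E2 array 2 and -0.84 without E2 array 3, so its direction rested on which array was kept. In bulk tissue, fewer cells of a type and less RNA per cell cannot be told apart.

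**Figure D2:**
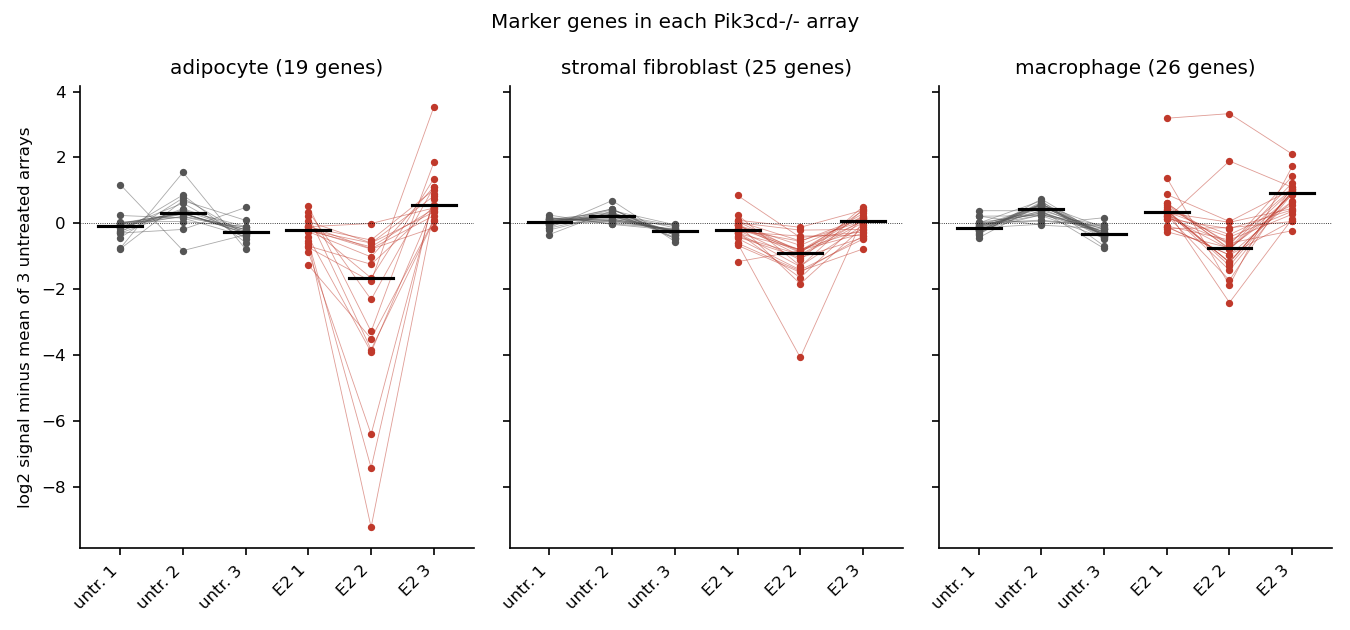
Log2 signal of each tested adipocyte, stromal fibroblast and macrophage marker, minus its mean over the 3 untreated Pik3cd-/- arrays (y axis), in each Pik3cd-/- array (x axis; grey untreated, red E2). Each point is 1 gene, thin lines join a gene within a group and black bars are medians. E2 array 2 is lowest in 18 of 19 adipocyte, 24 of 25 stromal and 23 of 26 macrophage genes.

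Stromal fibroblast genes showed the same low array with less depth. Of 25 tested, 24 were lowest in E2 array 2 (96.0%), and the list mean was 10.29, 9.44 and 10.46 after E2 against 10.50, 10.71 and 10.23 untreated. Dpt, dermatopontin of the collagen matrix, read 1581, 2152 and 1176 untreated and 1044, 94.1 and 1766 after E2. The fibrillar collagen gene Col1a1 read 2418, 2329 and 1853 untreated and 1793, 877 and 2938 after E2. Lum, a collagen-binding proteoglycan, read 6613, 7316 and 5251 untreated and 5210, 2011 and 6994 after E2. In these 3 genes E2 array 1 lay a little under the lowest untreated array, array 2 far under it and array 3 above it.

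A smaller set of stromal genes was lower in every E2 array. The groups did not overlap in 7 of 25 (28.0%, against 8.54% of all genes lower without overlap), and none of the 25 passed the threshold. Mfap4, a protein of elastic microfibrils, read 841, 1113 and 595 untreated and 542, 301 and 479 after E2 (-0.93 ± 0.21, adjusted p = 0.153). Pdgfra, the PDGF receptor alpha of mesenchymal cells, read 2238, 2409 and 1773 untreated and 1595, 1028 and 1568 after E2 (-0.63 ± 0.16, adjusted p = 0.185). Nr2f2, a nuclear receptor of theca and stroma, read 1387, 1440 and 1129 untreated and 1093, 1003 and 1014 after E2 (-0.34 ± 0.09, adjusted p = 0.209). The others were Scara5, Gas1, Serpinf1 and Mgp, at -0.83, -0.78, -0.43 and -0.40.

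The stromal median was -0.25 in Pik3cd+/- ovaries, where 3 members passed as lower (0.440% of all genes did). In Pik3cd-/- ovaries it was -0.36, with 23 of 25 lower on average (92.0%, against 61.7% of all genes). Without E2 array 2 the median was -0.07. In that fit, of the 7 without overlap, Mfap4, Pdgfra and Nr2f2 stood at -0.68, -0.42 and -0.31, against -0.93, -0.63 and -0.34 with all arrays. Scara5, Gas1, Serpinf1 and Mgp stood at -0.52, -0.47, -0.25 and -0.19, against -0.83, -0.78, -0.43 and -0.39. Without both arrays numbered 2, the 7 lay between -0.47 (Mfap4) and -0.10 (Serpinf1) and the list median was 0.03. Without untreated array 3 Mfap4 and Nr2f2 passed the threshold (-1.16 and -0.45, adjusted p = 0.0449 and 0.0480). Vessel genes were low in the same array, with 17 of 18 endothelial and 11 of 12 smooth muscle genes lowest in E2 array 2.

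Macrophage genes parted the 3 E2 arrays in both directions. Of 26 tested, 23 were lowest in E2 array 2 and 22 highest in E2 array 3, and the list mean was 7.69, 6.74 and 8.04 after E2 against 7.21, 7.68 and 7.03 untreated. Csf1r, the receptor for macrophage colony-stimulating factor, read 793, 1236 and 609 untreated and 1099, 314 and 1571 after E2. C1qa, a chain of complement C1q, read 281, 469 and 232 untreated and 479, 181 and 631 after E2. Cd163, the haemoglobin scavenger receptor, read 87.5, 113 and 69.6 untreated and 230, 24.0 and 292 after E2. In each of the 3, E2 array 2 was below and E2 array 3 above all untreated arrays.

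The macrophage list's median change was 0.06, with 1 member (Chil3) past the threshold (0.00787% of all genes rose). In Pik3cd+/- ovaries it was 0.55, with 3 members past the threshold as higher (1.18% of all genes were). In Pik3cd-/- ovaries the median was 0.56 without E2 array 2 and 0.77 without both arrays numbered 2. Csf1r moved from -0.04 to 0.64 and 0.91 in those fits and C1qa from 0.28 to 0.80 and 1.08, without passing. Cd163 moved from 0.46 to 1.47 (adjusted p = 0.0653) and 1.63 (adjusted p = 0.0496).

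A few genes outside the list, chosen after their values were seen, were lower in E2 array 2 than in the 5 other arrays. They were among the genes that passed only once E2 array 2, or both arrays numbered 2, had been left out. Genes and fits thus came from the same values, and the p-values below are a description, not a test. Fcna, the macrophage ficolin A, read 82.2, 97.2 and 71.2 untreated and 270.0, 51.8 and 274.3 after E2, and went from 0.88 ± 0.43 (adjusted p = 0.357) to 1.62 ± 0.25 (adjusted p = 0.0377). Lrg1, a secreted leucine-rich glycoprotein of neutrophils and vessels, read 63.9, 92.0 and 66.0 untreated and 246.4, 50 and 378.5 after E2, and went from 1.14 ± 0.47 to 1.94 ± 0.26 (adjusted p = 0.0310). Clec10a, a lectin of macrophages and dendritic cells, did not pass without E2 array 2 (0.80 ± 0.16, adjusted p = 0.106) and passed without both arrays numbered 2 (0.98 ± 0.13, adjusted p = 0.0277). With all arrays kept and the adipocyte list mean as a covariate, Fcna stood at 1.34 ± 0.22 (adjusted p = 0.0368), Lrg1 at 1.67 ± 0.16 (adjusted p = 0.000205) and Clec10a at 0.66 ± 0.14 (adjusted p = 0.0942).

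Of the 7 genes of MHC class II presentation tested, 0 passed the threshold. Cd74, the invariant chain, read 406, 847 and 401 untreated and 291, 200 and 661 after E2, and the list had a median of -0.45, or 0.12 without both arrays numbered 2. Of 5 lymphocyte genes tested, none was without overlap (4.72% of all genes were higher and 8.54% lower without overlap). Cd3e, a chain of the T cell receptor complex, read 51.6, 62.9 and 41.8 untreated and 49.9, 55.0 and 63.1 after E2, near the median signal.

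**Figure D3:**
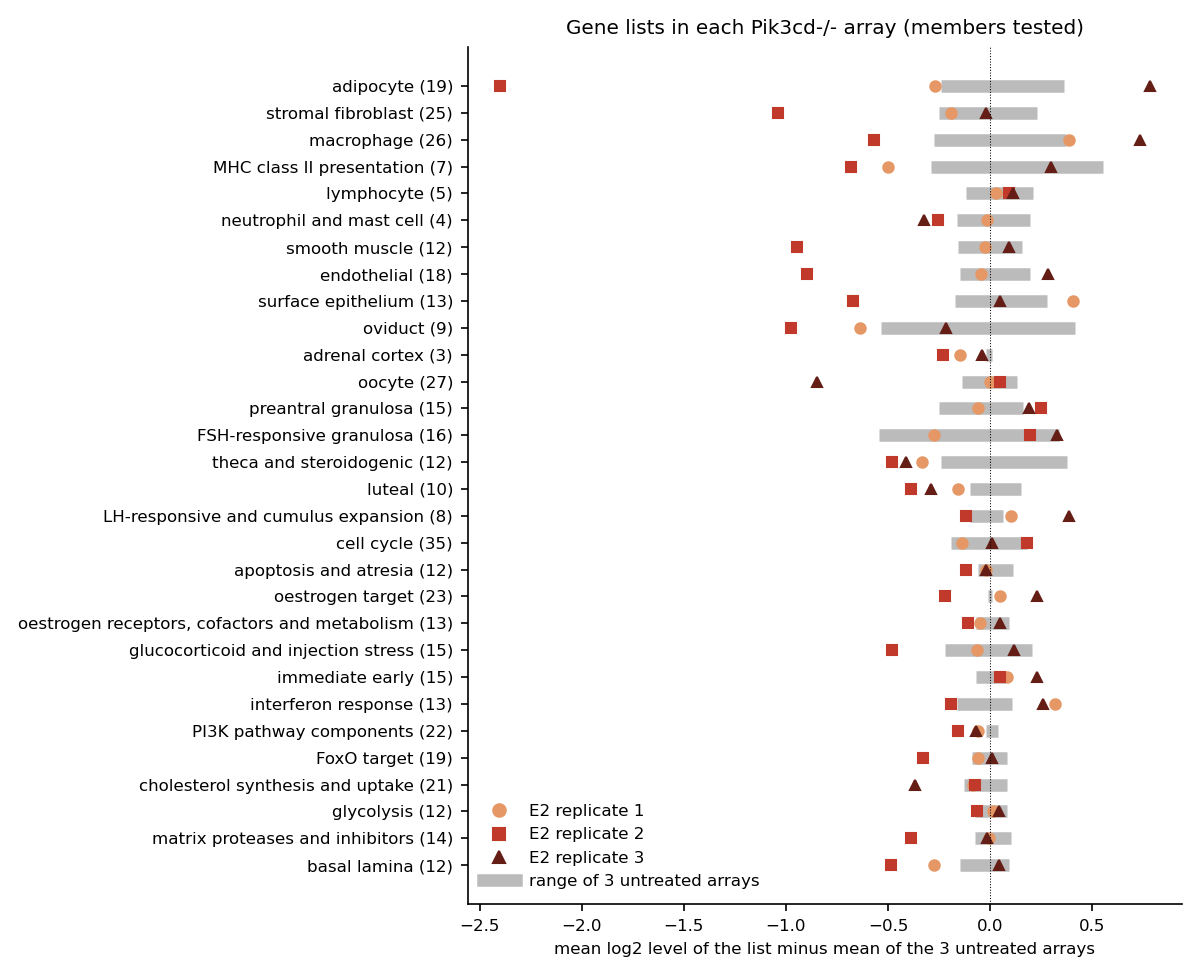
Mean log2 level of each gene list in each E2 array of Pik3cd-/- ovaries (points, shape and shade by replicate), minus the mean of the 3 untreated arrays (x axis); grey bars span the untreated arrays and the number of tested members stands beside each list (lists with at least 3). The adipocyte, stromal, smooth muscle and endothelial points of E2 array 2 and the oocyte point of E2 array 3 lie farthest below the untreated range.

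Oocyte genes set another array apart. All 27 tested were lowest in E2 array 3 (100% against 40.9% of all genes), where their mean was 9.57 against 10.42 and 10.47 in its mates and 10.28, 10.55 and 10.43 untreated. Gdf9 read 7372, 7558 and 4146 after E2 and 6728, 8190 and 6818 untreated. The zona pellucida gene Zp3 read 5289, 5619 and 2963 after E2 and 4625, 5043 and 4807 untreated. The oocyte median was -0.30 with all arrays and 0.01 without E2 array 3, against -0.62 in Pik3cd+/- ovaries. Kpna7, an oocyte importin, was the only gene of the 27 without overlap (3.7%, against 8.54% of all genes lower without overlap). It read 426, 594 and 482 untreated and 350, 425 and 178 after E2 (adjusted p = 0.277).

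None of 12 tested genes of the steroid-producing theca and interstitial cells passed the threshold. Their mean level was 10.10, 9.59 and 9.48 untreated and 9.39, 9.24 and 9.31 after E2, so that every E2 array lay below every untreated array. Cyp11a1, which cleaves the cholesterol side chain, read 1835, 820 and 643 untreated and 295, 217 and 415 after E2 (-1.70 ± 0.46, adjusted p = 0.214). Cyp17a1, the 17-hydroxylase of androgen synthesis, read 666, 194 and 137 untreated and 46.9, 71.9 and 112 after E2 (-1.74 ± 0.61, adjusted p = 0.258). The groups did not overlap for either, but the untreated arrays themselves spread widely, and neither passed.

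Hao2, a peroxisomal hydroxyacid oxidase, and Mgarp, a mitochondrial protein of steroid-producing cells, showed the same order of untreated arrays. Hao2 read 1043, 452 and 344 untreated and 265, 230 and 245 after E2 (-1.12 ± 0.32, adjusted p = 0.232). Mgarp read 1025, 726 and 394 untreated and 299, 214 and 374 after E2 (-1.18 ± 0.33, adjusted p = 0.224). Without untreated array 1, the highest in all 4 genes, Cyp11a1 stood at -1.26, Cyp17a1 at -1.08 and Hao2 at -0.66, against -1.70, -1.74 and -1.12 with it.

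Other steroidogenic genes overlapped between the groups. Star, which moves cholesterol into mitochondria, read 143, 101 and 99.5 untreated and 156, 110 and 115 after E2 (0.14 ± 0.56). Hsd3b1, the 3-beta-hydroxysteroid dehydrogenase, read 11176, 8171 and 10165 untreated and 8432, 7579 and 7756 after E2 (-0.30 ± 0.13, adjusted p = 0.324), and passed as lower in Pik3cd+/- ovaries (-0.79, adjusted p = 0.00990). The whole list had 9 of 12 lower on average (61.7% of all genes were), 3 of them without overlap (8.54% of all genes) and 0 past the threshold. Its median was -0.24, or -0.14 without untreated array 1, against -0.36 in Pik3cd+/- ovaries. Side by side with PMSG, which shares the untreated arrays, Cyp11a1 read 5819, 7495 and 7089 and Cyp17a1 3005, 3352 and 6062 in PMSG arrays.

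**Figure D4:**
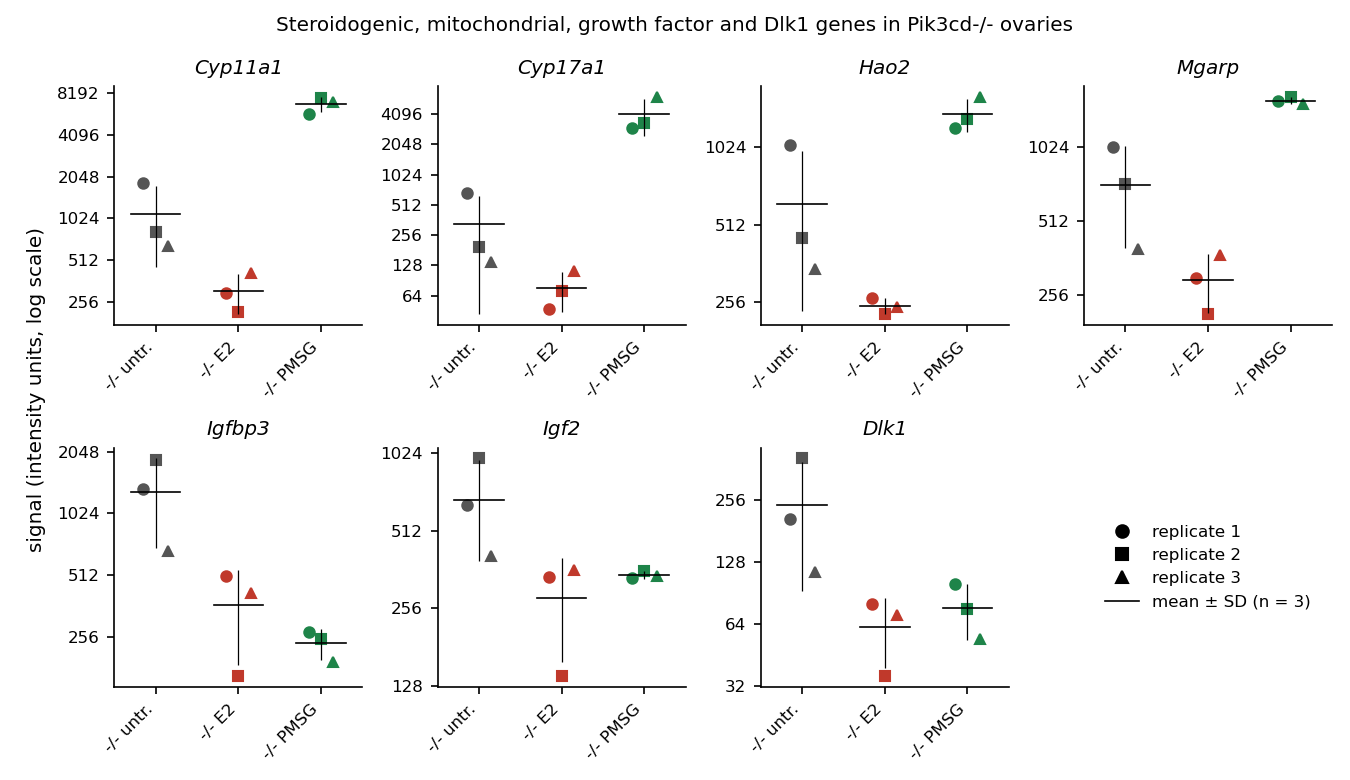
Signal on a log scale (intensity units, y axis) of 7 genes lower after E2 without overlap, in untreated (untr.), E2 and PMSG arrays of Pik3cd-/- ovaries (x axis). Points are arrays with the shape giving the replicate number, and lines are the mean ± SD (n = 3). Cyp11a1 reads 217 to 415 after E2, 643 to 1835 untreated and 5819 to 7495 after PMSG.

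None of 11 genes, those of the insulin-like growth factor family and Dlk1, passed the threshold. They were put together after the values were seen. Igfbp3, a secreted carrier of these growth factors, read 1354, 1873 and 671 untreated and 508, 165 and 420 after E2 (-1.84 ± 0.44, adjusted p = 0.173). Igf2, the growth factor made by theca cells in rodents, read 643, 978 and 408 untreated and 339, 140 and 360 after E2 (-1.27 ± 0.32, adjusted p = 0.185). Dlk1, a membrane protein of theca and Leydig-type cells encoded by an imprinted gene as Igf2 is, read 207, 409 and 115 untreated and 80.0, 36.1 and 71.4 after E2 (-1.71 ± 0.38, adjusted p = 0.150). Igf2r, the receptor that clears IGF2, read 719, 811 and 653 untreated and 468, 465 and 623 after E2 (-0.49 ± 0.12, adjusted p = 0.175).

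In these 4 genes untreated array 3 was the lowest of its group. E2 array 2 was the lowest in all 4, as it was for stromal genes, and without it Igfbp3, Igf2 and Dlk1 stood at -1.36, -0.85 and -1.41. Without both arrays numbered 2 they stood at -1.03, -0.54 and -0.96. All 11 were lower on average (61.7% of all genes were), with Igf1r at -0.02, and 5 did not overlap (8.54% of all genes were lower without overlap). Since the 11, Dlk1 included, were chosen with these values seen, the shares are a description. The median was -0.31, or -0.20 without E2 array 2 and -0.15 without both arrays numbered 2, against -0.12 in Pik3cd+/- ovaries. Dlk1 passed without untreated array 3 (-2.14, adjusted p = 0.0449). Igf1, made by granulosa cells, read 2407, 2783 and 2598 untreated and 1731, 1855 and 2943 after E2, so that E2 array 3 overlapped.

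Fewer genes were higher than lower without overlap, 600 (4.72%) against 1086 (8.54%). Adamdec1, a metalloprotease of macrophages and dendritic cells, read 126, 36.3 and 23.1 untreated and 311, 159 and 292 after E2 (2.13 ± 0.85, adjusted p = 0.285). Its change in Pik3cd+/- ovaries was -0.84 (adjusted p = 0.671). Nr4a1, an orphan nuclear receptor induced early by many signals, read 147, 130 and 148 untreated and 217, 250 and 277 after E2 (0.77 ± 0.16, adjusted p = 0.128), and passed in Pik3cd+/- ovaries (0.89, adjusted p = 0.0141). Cebpb, a transcription factor of ovulatory and inflammatory responses, read 940, 996 and 1128 untreated and 1295, 1417 and 1948 after E2 (0.58 ± 0.12, adjusted p = 0.128) and also passed in Pik3cd+/- ovaries (0.76, adjusted p = 0.00905).

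Other genes higher without overlap leaned on untreated array 2. Wsb1, a ubiquitin ligase adaptor, read 396, 212 and 355 untreated and 554, 722 and 685 after E2 (1.05 ± 0.25, adjusted p = 0.173). Gpsm1, a regulator of G-protein signalling, read 589, 249 and 481 untreated and 598, 813 and 758 after E2 (0.78 ± 0.23, adjusted p = 0.232). In both, untreated array 2 was the lowest, as it was for Inhba and for Ninl and Cmtm6, which were higher on average by 0.82 and 0.84. Without untreated array 2, Wsb1 stood at 0.78, Gpsm1 at 0.42, Ninl at 0.38 and Cmtm6 at 0.48.

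Of 23 tested genes known as oestrogen targets in other tissues, 0 passed the threshold, 2 were higher without overlap (8.70%, against 4.72% of all genes) and 1 lower (4.35%, against 8.54%). The median was -0.11, and 0.05 without E2 array 2 (0.09 in Pik3cd+/- ovaries). Greb1, a receptor cofactor and a standard target in the breast and uterus, read 3235, 1984 and 2763 untreated and 2856, 2812 and 2548 after E2 (0.07 ± 0.17). Pgr, the progesterone receptor, read 167, 105 and 145 untreated and 311, 67.5 and 511 after E2, so that array 2 lay below and arrays 1 and 3 above every untreated array. Ramp3, a receptor activity modifying protein, read 93.2, 115 and 78.0 untreated and 169, 156 and 157 after E2 (0.72 ± 0.23, adjusted p = 0.235). Susd3, a cell surface protein induced by oestrogen in breast cells, went the other way, from 212, 218 and 213 to 163, 164 and 133 (-0.47 ± 0.23, adjusted p = 0.359).

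The receptors themselves were measured in all arrays. Esr1 read 1330, 1504 and 1178 untreated and 1053, 681 and 1241 after E2 (-0.47 ± 0.23, adjusted p = 0.367), lowest in the array that was low in stroma. Esr2 read 271, 271 and 381 untreated and 242, 322 and 379 after E2 (0.03 ± 0.15). Of the 13 genes of oestrogen receptors, cofactors and metabolism tested, only Ncoa2, a coactivator, was higher without overlap (7.69%, against 4.72% of all genes), and none was lower. Ncoa2 went from 899, 572 and 800 to 956, 934 and 976 (0.36 ± 0.14, adjusted p = 0.279).

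The direction of FSH-responsive granulosa genes turned on untreated array 2. That of 15 preantral granulosa genes did not, with a median of -0.03 and of -0.05 without that array. Of 16 FSH-responsive granulosa genes tested, 0 passed, and the median was 0.15 with all arrays and -0.08 without untreated array 2. Inhba read 2928, 273 and 2066 untreated and 1038, 2282 and 3059 after E2. Ccnd2, the cyclin of granulosa cell proliferation, read 2689, 2046 and 2724 untreated and 2594, 3342 and 3109 after E2 (0.28 ± 0.12, adjusted p = 0.324). The 35 cell cycle genes tested had a median of -0.01, with 0 past the threshold.

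None of 22 tested genes of the phosphoinositide 3-kinase pathway, the pathway of the deleted gene, passed the threshold. Their mean was 9.01, 9.07 and 9.01 untreated and 8.97, 8.87 and 8.96 after E2, and 5 members were lower without overlap (22.7%, against 8.54% of all genes). The median was -0.11, or -0.07 without E2 array 2 and -0.05 without both arrays numbered 2, against -0.05 over all genes with every array. Pik3r1, the regulatory subunit p85 alpha, read 1826, 2520 and 1963 untreated and 1667, 1112 and 1699 after E2 (-0.50 ± 0.15, adjusted p = 0.232), and stood at -0.31 without E2 array 2. Among 19 FoxO target genes tested, 0 passed and 2 were lower without overlap (10.5%, near the 8.54% of all genes). Of these, Fbxo32, the ubiquitin ligase atrogin-1, read 784, 954 and 516 untreated and 507, 330 and 486 after E2 (-0.74 ± 0.20, adjusted p = 0.224).

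The genes that passed after E2 in Pik3cd+/- ovaries were then followed in Pik3cd-/- ovaries. They were chosen for their change in Pik3cd+/- ovaries, so a smaller value elsewhere is no test. The 150 that rose had a median of 0.70 there and 0.16 in Pik3cd-/- ovaries, where 117 (78.0%) had the same sign. Of the 150, 36 (24.0%) were higher without overlap (4.72% of all genes were) and 1 passed as higher (0.00787% of all genes did). The 56 that fell had a median of -0.61 and -0.33, and 53 (94.6%) had the same sign (61.7% of all genes were lower on average). Of the 56, 24 (42.9%) were lower without overlap (8.54% of all genes were) and 3 passed as lower (0.0472% of all genes did).

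Interferon-induced genes were among those with the widest gap between the genotypes. In Pik3cd+/- ovaries 6 of 13 rose (1.18% of all genes did), with a median change of 1.18. In Pik3cd-/- ovaries 0 passed (0.00787% of all genes rose), with a median of 0.15. Ifit1, an antiviral protein that binds foreign RNA, went from 131, 84.7 and 49.8 to 261, 419 and 398 in Pik3cd+/- ovaries and from 85.5, 91.9 and 69.9 to 137, 57.5 and 109 in Pik3cd-/- ovaries. The difference of the changes was -1.78 (95% interval -3.20 to -0.36) and did not pass over all genes (adjusted p = 0.660). Irf7, the transcription factor that amplifies this response, differed by -1.09 (95% interval -2.03 to -0.15, adjusted p = 0.671).

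Tested gene by gene, 0 of 12713 changes differed between the genotypes at an adjusted p under 0.05 (limma interaction), with 924 (7.27%) at an unadjusted p under 0.05. The smallest adjusted p was that of Coq8a, a mitochondrial kinase of coenzyme Q synthesis, at 0.250: it read 375, 461 and 404 untreated and 345, 366 and 376 after E2 (-0.18), and its change in Pik3cd+/- ovaries was 0.62. Itih2, a hyaluronan-binding plasma protein, stood at -0.46 against 1.65 (adjusted p = 0.309), and Ntn4, a basement membrane netrin, at -0.10 against 1.54 (adjusted p = 0.386).

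This count rested on E2 array 3. Without it, 69 interactions passed (0.543%), 54 of them with the higher change in Pik3cd-/- ovaries, among them 5 of the 27 oocyte genes (18.5%). Zp3, for instance, then stood at 0.18 in Pik3cd-/- ovaries with an interaction of 0.78 ± 0.10 (adjusted p = 0.00331), whereas with all arrays its change was -0.12. The list holds only some oocyte genes, and others outside it, such as Nlrp4a and Oog4, were also among the 69. E2 array 3 was the array low in oocyte genes, and the part of oocyte content in these differences was not tested.

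**Figure D5:**
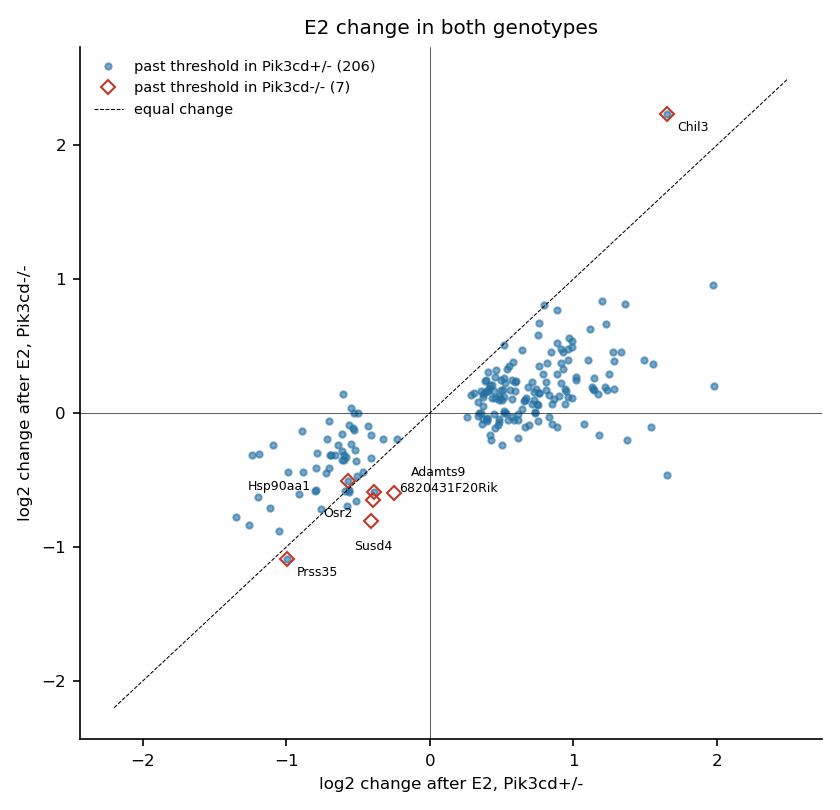
Log2 change after E2 in Pik3cd+/- ovaries (x axis) against that in Pik3cd-/- ovaries (y axis) for the 206 genes past the threshold in Pik3cd+/- (blue) and the 7 in Pik3cd-/- ovaries (red diamonds, named); the dashed line marks equal change. Each point is 1 gene from 3 arrays per group. Chil3 (1.66 and 2.23) and Prss35 (-0.997 and -1.09) lie near or past equal change, and most blue points lie between the line and 0.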

How the data were processed

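Total RNA of mouse ovaries was hybridised to Affymetrix Mouse Genome 430 2.0 arrays. The authors deposited 1 intensity per probe set and array on a linear scale, for 45101 probe sets and 18 arrays; the submitters' processing notes name MAS5, with no version or role, and the normalization is not given in the sources used here. Array medians ran from 48.4 to 50.9, so no further normalization was applied. Precision is limited by the number of arrays.

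Samples were grouped by their titles. Probe sets without a symbol (9160), with several (932) and controls (64) were left out. A pseudocount of 8.58 (the 10th percentile over every array) was added to each signal before log2 was taken. The brightest probe set stood for each gene, and genes whose mean log2 value exceeded 5.87, the overall median, in 1 group or more were kept, which left 12713. A model of 6 group means over the 18 arrays was fitted in R 4.3.3 using limma 3.58.1 with eBayes and a trend (12 residual and 3.66 prior degrees of freedom), two-sided, with Benjamini-Hochberg adjustment over all genes tested and a threshold of 0.05. Data with known changes were simulated for the E2 comparison in Pik3cd-/- ovaries (12713 genes, 50 changed at each size). Of the genes changed by log2 0.5, 52% were recovered, with 88% at 1, 90% at 1.5 and 100% at 2. These shares hold for the simulated spread and are not the power for genes that spread widely between the real arrays. Chil3 (2.23) and Prss35 (-1.09) passed in the real arrays. Igfbp3 (-1.84 ± 0.44), Fmo2 (-1.71 ± 0.31) and Cyp11a1 (-1.70 ± 0.46) did not. Changes are log2 ± SE, and no set test was run. Replicate means in figures carry the SD.

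Members and gene lists were chosen with earlier results of these data known. Named were the genes past the threshold, the 12 largest rises and 12 largest falls without overlap between arrays (clone names left out), every measured fat, stroma and macrophage marker, an ovarian panel, E2 genes named earlier for Pik3cd+/- ovaries, up to 4 members of each other list by p and any that passed, the 15 genes with the largest SD over the E2 arrays and, since none passed the interaction, the 5 with its smallest p; fewer are printed. Several lists share genes, and other ovarian cells express many of them. Lists were matched by symbol or, where the listed name is no current symbol, by synonym. Alternatives were a pseudocount of 1, 64 or none, filtering at the 70th percentile or not at all, eBayes without trend, quantile normalization, a fit to the compared groups alone, a block for the replicate number, the probe set with the highest variance, array weights and each array left out. Leaving out both Pik3cd-/- arrays numbered 2, and the adipocyte mean as a covariate, were chosen after seeing the data. The labels do not say that replicate numbers pair arrays, and p-values measure only the spread between these arrays.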

Additional observations from a re-analysis of the deposited data

Results flagged for a closer look

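In Irs2 and Ddhd1 every E2 array lay on one side of the untreated arrays in Pik3cd-/- ovaries and on the other side in Pik3cd+/- ovaries. They were flagged as examples, and no count of such genes over all genes tested is given. Irs2, the insulin receptor substrate that recruits phosphoinositide 3-kinase, read 126, 136 and 112 untreated and 94.2, 92.6 and 110 after E2 in Pik3cd-/- ovaries (log2 change -0.31). In Pik3cd+/- ovaries it read 169, 144 and 124 untreated and 187, 182 and 175 after E2 (0.31). Ddhd1, a phospholipase that prefers phosphatidic acid, read 311, 239 and 262 untreated and 377, 406 and 372 after E2 in Pik3cd-/- ovaries (0.50). In Pik3cd+/- ovaries it read 463, 473 and 498 untreated and 337, 374 and 267 after E2 (-0.55). The limma interaction did not pass for either gene (adjusted p = 0.462 for Irs2 and 0.311 for Ddhd1). Without E2 array 3 of Pik3cd-/- ovaries the Ddhd1 interaction passed (adjusted p = 0.0411 by limma). No outlier test was run, since each group holds 3 arrays.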

How the results depend on the processing

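The count of 7 genes after E2 in Pik3cd-/- ovaries was 2 with no filter on low values, 3 after quantile normalization, 0 with only the groups of the comparison (802 at an unadjusted p under 0.05 by limma), 16 with the probe set of highest variance, 1 with array weights and 11 without both arrays numbered 2, and from 2 to 24 when single arrays were left out. The 24 came without untreated array 3 and included all 7 genes. With the replicate number as a block it was 2, of which 1 (Chil3) was among the 7. The deviations of same-numbered arrays of the 2 groups correlated at -0.135, -0.273 and -0.223, and 0 arrays correlated best with their own number. In Pik3cd+/- ovaries the same-numbered arrays correlated at 0.22, -0.018 and 0.282. With 3 arrays per group these values cannot decide whether replicate numbers pair arrays. The count of 206 in Pik3cd+/- ovaries was 764 with only the groups of the comparison, 3660 with array weights, 371 with the adipocyte mean as a covariate and 33 to 110 without single arrays (33 without untreated array 3). The interaction count of 0 was 1 with only the groups of the comparison, 1 with the replicate number as a block, 1 with the adipocyte covariate and 0 to 69 without single arrays (69 without E2 array 3 of Pik3cd-/- ovaries). The other settings kept these counts within 1.5 times. For 233 named genes under the alternatives, 4059 of 4376 values kept direction and side of the threshold, 62 lost it, 11 gained it, none that passed changed sign and 244 that passed in neither fit changed sign; the causes were not tested. The range of list levels over the E2 arrays was 2.65 to 3.18 for fat, 0.83 to 1.02 for stroma and 1.26 to 1.59 for macrophage genes with the mean or median of tested members or the mean of all members.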

Other observations

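No gene of the basal lamina, which wraps the follicle, or of the luteal list passed the limma threshold after E2 in Pik3cd-/- ovaries. Of 12 basal lamina genes tested, 11 were lower on average (61.7% of all genes were) and 2 were lower without overlap (8.54% of all genes were). Their median was -0.23, or -0.08 without E2 array 2 and -0.04 without both arrays numbered 2. Lama2, a laminin chain, read 1155, 1357 and 976 untreated and 745, 712 and 833 after E2 (-0.59 ± 0.13, adjusted p = 0.150). Of 10 luteal genes tested, 8 were lower on average. Without overlap, 2 were lower (8.54% of all genes were) and 1 higher (4.72% of all genes were). The luteal median was -0.20, or -0.07 without E2 array 3. Parm1, a membrane protein of the luteal list, read 249, 285 and 318 untreated and 212, 183 and 204 after E2 (-0.49 ± 0.09, adjusted p = 0.0876).

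Cell cycle and cholesterol synthesis genes also parted the E2 arrays of Pik3cd-/- ovaries without any member past the threshold. Of 35 cell cycle genes, 20 were lowest in E2 array 1 (23.1% of all genes were) and the list mean was 9.38, 9.70 and 9.53 after E2 against 9.53, 9.33 and 9.70 untreated. Of 21 genes of cholesterol synthesis and uptake, 16 were lowest in E2 array 3 (40.9% of all genes were), with a mean of 8.48, 8.49 and 8.20 after E2 and 8.61, 8.44 and 8.65 untreated.

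Some genes were bright in a single array of a group. Pramel27, of a gene family expressed in oocytes and early embryos, read 633 in E2 array 1, 84.1 and 51.0 in its mates and 70 to 86.8 untreated. Within the E2 group Pck1, the gluconeogenic enzyme of fat and liver and a member of the adipocyte list, read 625 in array 3 and 32.5 and 15.9 in its mates. Bfsp1, a lens filament protein, read 247 in untreated array 3, 21.5 and 21.6 in its mates and 18.9 to 19.4 after E2, and its log2 difference was -1.15 ± 0.66 (adjusted p = 0.415 by limma).

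Of the 15 immediate early genes tested, 0 passed the threshold after E2 in Pik3cd-/- ovaries, where 2 were higher (4.72% of all genes were) and 1 lower (8.54%) without overlap between arrays. Egr1, a zinc finger transcription factor, read 2083, 1917 and 1337 untreated and 1203, 1124 and 1029 after E2 (-0.64 ± 0.22, adjusted p = 0.252). Atf3, a stress-induced factor of the same list, read 38.4, 48.8 and 47.0 untreated and 59.2, 69.6 and 72.7 after E2 (0.51 ± 0.11, adjusted p = 0.150). In Pik3cd+/- ovaries 4 of the 15 rose (1.18% of all genes did), Atf3 among them (0.52, adjusted p = 0.0332). The Atf3 interaction had an adjusted p of 0.989.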
